A study of Mus musculus with 42 samples.

Results

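The receptors Notch1, Notch2 and Notch4, the DNA-binding factor Rbpj and the target gene Hes1 were followed in microglia, the resident macrophages of the brain, across 42 RNA-sequencing libraries in 11 groups. The 5 genes were chosen by name, and all 5 were found among the 24421 genes of the whole-brain files and among the 53546 genes of the cortex and hippocampus table. Notch4 was chosen because it was higher in germ-free hippocampus. Its hippocampal values in germ-free and conventionally colonised mice, and every difference built on them, are therefore given as a description without a test.

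Microglia had been sorted as CD11b+ CD45lo cells after a density gradient, from C57BL/6 mice. GFA stands for germ-free mice given acetate, a short-chain fatty acid that gut bacteria produce, GF for germ-free mice and SPF for mice kept specific-pathogen-free with a gut flora. The whole-brain groups were wild-type GF (n = 5) and SPF (n = 3) mice aged 6 to 12 weeks, and the titles of their libraries carry 8w and F. The cortex groups were wild-type GFA, GF and SPF mice (n = 4 each), and the hippocampus groups were wild-type GFA (n = 4), GF (n = 3) and SPF (n = 4) and 5xFAD GFA (n = 4), GF (n = 3) and SPF (n = 4) mice, all aged 16 weeks. Acetate treatment of the wild-type and 5xFAD groups lasted 8 weeks; the labels also speak of a GF group treated for 4 weeks, which they assign to no library. 5xFAD mice model Alzheimer disease and carry human transgenes with mutations of familial disease, driven by the Thy1 promoter in neurons. Cortex and hippocampus of 11 wild-type mice came from the same animals (GFA518, GFA523, GFA524 and GFA525, GF529, GF530 and GF532, and SPF1 to SPF4), going by the animal numbers in the titles, while GF528 has a cortex library only.

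Total counts per library were 19.33 to 25.37 M counts in whole brain, 15.79 to 23.86 M counts in cortex and 5.744 to 22.53 M counts in hippocampus, where wild-type SPF4 and 5xFAD SPF2142 were the shallow ones. The 12 microglial markers summed to 45100 to 92400 CPM (read counts brought to a common library size, with TMM scaling within each table). Neutrophil genes stood out in 3 libraries, with 175 CPM in a whole-brain GF library, 226 CPM in a wild-type hippocampus GF library and 262 CPM in 5xFAD SPF2153, and erythroid genes in wild-type hippocampus SPF3 (73 CPM). Whole brain and the other table were normalised and tested apart, so levels are not compared between them. A gene was called where the adjusted p of edgeR's quasi-likelihood test was under 0.05.

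Notch receptors are transmembrane proteins that are activated by ligands of the Delta-like and Jagged families on a neighbouring cell. Binding exposes the receptor to ADAM proteases and then to gamma-secretase, and the freed intracellular domain enters the nucleus, where it joins RBPJ and Mastermind proteins to switch on genes of the Hes and Hey families. In brain, Notch1 and Notch2 are known from neural progenitors, glia and macrophages, Notch3 from mural cells and Notch4 from blood vessel endothelium. RBPJ without an intracellular domain recruits corepressors.

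Notch4 was the only gene of the 5 called between housings, in whole brain and in cortex. It lies on the forward strand of chromosome 17 (GENCODE M21, GRCm38, 34564268 to 34588503), and Gpsm3 begins 1302 bases past its end. The 250 bases before its RefSeq start (GRCm38.p6, chr17:34564045-34564294, forward strand) are given because this is the gene whose level changed.
Notch4: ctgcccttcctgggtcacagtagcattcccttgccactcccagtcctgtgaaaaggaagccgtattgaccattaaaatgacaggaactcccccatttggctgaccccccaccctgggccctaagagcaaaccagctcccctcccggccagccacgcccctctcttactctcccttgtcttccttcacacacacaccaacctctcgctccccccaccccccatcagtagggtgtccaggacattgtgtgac
The stretch is 58.4% G and C and holds 4 CpG dinucleotides. It holds no TGGGAA on either strand, the core letters of the RBPJ motif, which would stand in capitals and which 21.6% of 32851 RefSeq windows of this length contain. The windows of Notch1 and Notch2 held none, and both overlapping windows of Rbpj held it. For Hes1 no window was available, so it was not searched.

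In whole brain, Notch4 rose 2.54-fold in GF mice, and the other 4 genes did not pass. Notch4 had 11.2, 14, 7.54, 10.9 and 13.8 CPM in the GF libraries, against 3.75, 2.97 and 6.87 CPM in the SPF libraries. Every GF library was above every SPF library, as was the case for 5.94% of all genes tested. The log2 difference was 1.35 (SE 0.305, adjusted p = 0.0377), and 1.99% of 11332 genes were called in either direction. It was lost when any of GF1, GF2, GF4, GF5, SPF1 or SPF3 was left out, with an adjusted p of 0.0703 to 0.156, and over 14 alternatives the adjusted p ran from 0.0012 to 0.177.

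In cortex Notch4 rose as well. It averaged 87.1 ± 23.7 CPM in GF cortex and 21.6 ± 4.58 CPM in SPF cortex (SD, n = 4 each). GF528, GF529, GF530 and GF532 had 75.1, 120, 65.9 and 86.9 CPM, against 20.5, 21.2, 27.9 and 16.9 CPM in SPF1 to SPF4. Every GF library was above every SPF library, as for 3.98% of all genes. Notch4 was 4.02-fold higher (log2 2.01, SE 0.256, adjusted p = 0.00073), where 1.71% of 15113 genes were called, and it stayed called in all 13 alternatives (adjusted p 1.01e-12 to 0.0142). GF529, GF530, GF532 and SPF1 to SPF4 also gave the hippocampus libraries on which Notch4 was chosen, so the cortex test is not independent of that choice.

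**Figure D1:**
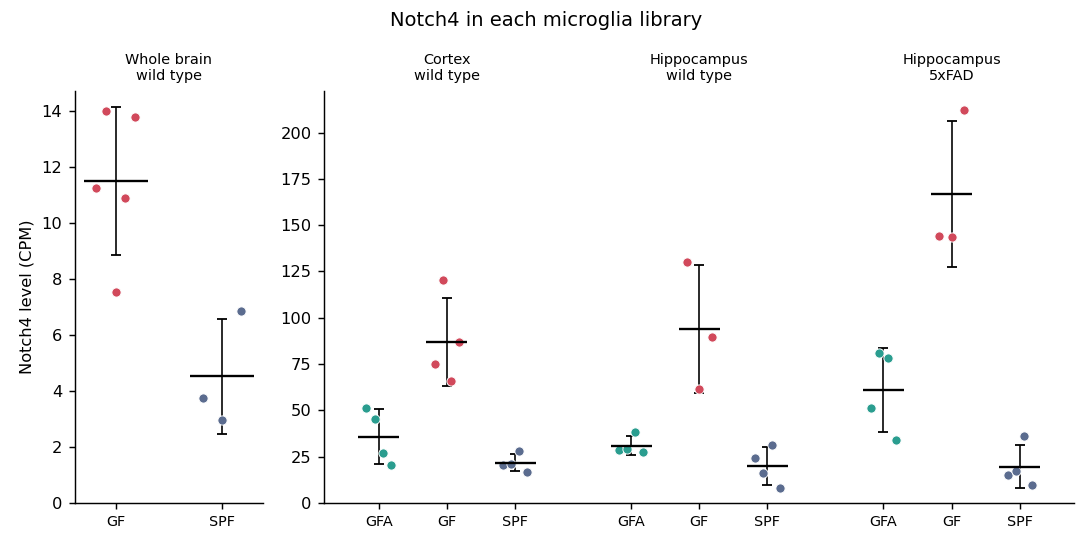
Notch4 level in CPM in each library (points), with the group mean (line) and SD (bar); whole brain, on an axis of its own, and the other table were scaled separately. GF libraries lie at 7.54 to 14 CPM in whole brain and at 61.7 to 212 CPM in cortex and hippocampus, above all SPF libraries of the same tissue and genotype, and the GFA libraries lie between 20.2 and 80.9 CPM.

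In hippocampus, where the gene was chosen, the same levels can be listed but not tested. Wild-type GF529, GF530 and GF532 had 130, 61.7 and 89.6 CPM of Notch4, against 24.4, 15.9, 31 and 7.78 CPM in wild-type SPF1 to SPF4. In 5xFAD mice, GF526, GF527 and GF531 had 144, 144 and 212 CPM, against 14.8, 17.4, 36.1 and 9.43 CPM in SPF2140, SPF2142, SPF2152 and SPF2153. In both genotypes the groups did not overlap, as for 5.42% of genes in wild type and 7.4% in 5xFAD. The fitted log2 differences were 2.21 (SE 0.393) in wild type and 3.09 (SE 0.402) in 5xFAD, ranging over 15 alternatives from 1.91 to 2.5 and from 2.85 to 3.61. Across all genes, 0.727% and 1.82% of 17063 genes were called in these comparisons, and Notch4 is not counted in either.

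In cortex, Notch4 was lower in germ-free mice that had received acetate. GFA518, GFA523, GFA524 and GFA525 had 51.2, 45.1, 26.7 and 20.2 CPM, all under the 65.9 CPM of the lowest GF library. GFA518 and GFA523 were above the highest SPF library (27.9 CPM), and GFA524 and GFA525 lay within the SPF range. The fall was 2.44-fold (log2 -1.29, SE 0.249, adjusted p = 0.0174), where 0.973% of genes were called and 3.71% had GFA libraries all under GF libraries. It was lost without GF528, GF529, GF532, GFA524 or GFA525 (adjusted p 0.0508 to 0.0915) and with no filter on low counts (0.136), and the adjusted p over 13 alternatives ran from 3.61e-05 to 0.136. This comparison and that of GF against SPF share the 4 GF libraries. GF529, GF530 and GF532 also gave hippocampus libraries on which Notch4 was chosen, so this test is not independent of that choice either. Against SPF, Notch4 in GFA cortex had a log2 of 0.72 (SE 0.251) and did not pass (adjusted p = 0.475), with 0.364% of genes called.

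In hippocampus of acetate-treated mice, Notch4 had 28.5, 28.9, 38.4 and 27.6 CPM in wild-type GFA518, GFA523, GFA524 and GFA525, and 51, 80.9, 78 and 33.8 CPM in 5xFAD GFA519 to GFA522. All were below the GF libraries of their genotype, as for 4.5% of genes in wild type and 5.34% in 5xFAD. The log2 difference of GFA against GF was -1.60 (SE 0.385) in wild type and -1.45 (SE 0.382) in 5xFAD, neither tested, where 0.492% and 0.082% of genes were called. Against SPF it was 0.61 (SE 0.366) in wild type and 1.64 (SE 0.372) in 5xFAD. Wild-type GFA overlapped SPF, and in 5xFAD only GFA522 lay under the highest SPF library; 0.123% and 0.0527% of genes were called against SPF in wild type and 5xFAD.

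Between genotypes, the 3 5xFAD GF libraries were above the 3 wild-type GF libraries (log2 0.83, SE 0.411, not tested), as for 9.22% of all genes. In SPF hippocampus the log2 difference was -0.05 (SE 0.371, not tested), with a sign that changed over 16 alternatives (-0.57 to 0.48). The GFA libraries were not used in the choice of the gene. There Notch4 averaged 60.9 ± 22.6 CPM in 5xFAD and 30.8 ± 5.07 CPM in wild type (SD, n = 4 each), and the 1.97-fold difference did not pass (log2 0.98, SE 0.362, adjusted p = 0.183), where 2.51% of genes were called.

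Ordered by mean, Notch4 in the 9 groups of the second table went from 5xFAD SPF hippocampus (19.4 CPM) through wild-type SPF hippocampus (19.8 CPM), SPF cortex (21.6 CPM), wild-type GFA hippocampus (30.8 CPM), GFA cortex (35.8 CPM), 5xFAD GFA hippocampus (60.9 CPM), GF cortex (87.1 CPM) and wild-type GF hippocampus (93.8 CPM) to 5xFAD GF hippocampus (167 CPM). All neighbours in this order overlapped except the last pair.

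Per length of its exons, Notch4 changed place among the receptors. In 5xFAD GF hippocampus it stood at 20.7 CPM per kb, against 5.56 CPM per kb for Notch1 and 21.1 CPM per kb for Notch2. In 5xFAD SPF hippocampus it stood at 2.41 CPM per kb, against 5.88 for Notch1 and 17.5 for Notch2. The mean level of Notch4 was thus 3.72 times that of Notch1 in 5xFAD GF hippocampus and 0.410 times in 5xFAD SPF hippocampus. In cortex the ratio was 0.739 in GFA, 1.89 in GF and 0.456 in SPF mice. Coding length alone gives lower ratios (2.69 in 5xFAD GF hippocampus and 1.37 in GF cortex), and it puts 5xFAD GFA hippocampus just under 1 (0.995, against 1.37 with exon length).

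Of the summed exon-length level of Notch1, Notch2 and Notch4, Notch4 made up 43.5 ± 7.58% in 5xFAD GF hippocampus (n = 3), against 9.26 ± 4.70% in 5xFAD SPF hippocampus (SD, n = 4). In cortex the share was 14.5 ± 6.46% in GFA, 26.6 ± 2.69% in GF and 8.37 ± 1.96% in SPF mice (n = 4 each). Whole-brain GF microglia had 15.8 ± 2.69% (n = 5), against 5.80 ± 2.87% in SPF (n = 3). Notch3, the remaining receptor, had at most 1 read in any library.

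**Figure D2:**
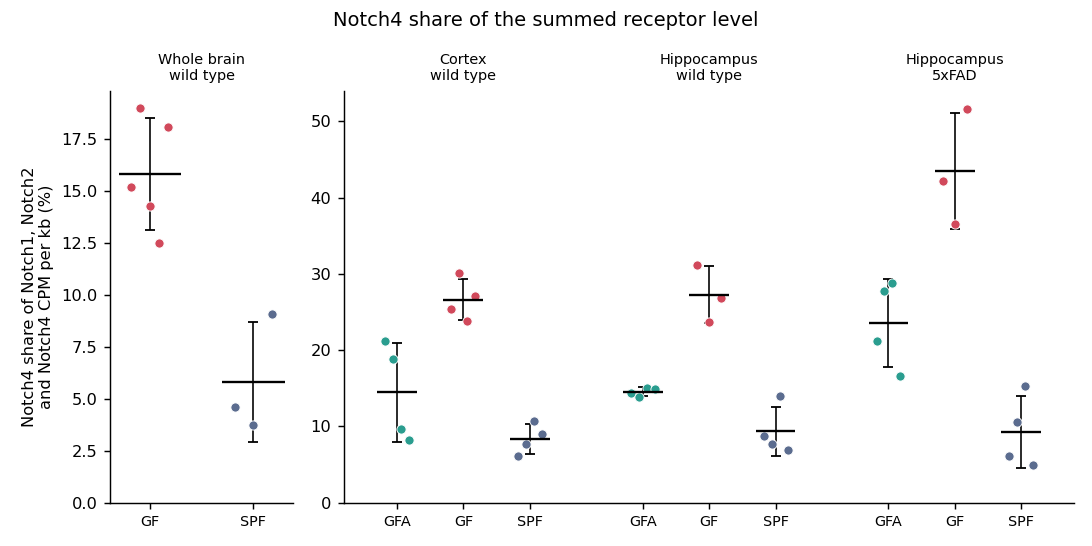
Share of Notch4 (%) in the summed CPM per kb of exon of Notch1, Notch2 and Notch4 in each library (points), with group mean and SD. GF shares lie at 12.5 to 19% in whole brain and 23.7 to 51.6% in the other tissues; SPF shares reach 9.08% in whole brain and 15.3% elsewhere.

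Notch4 is best known from endothelium, so vessel markers were read beside it. The 20 endothelial markers summed to 168 to 206 CPM in GF cortex, against 207 to 292 CPM in SPF cortex, and to 153 to 171 CPM in 5xFAD GF hippocampus, against 185 to 217 CPM in 5xFAD SPF hippocampus. The medians of Cldn5, the tight-junction protein of brain vessels, and of Emcn, Erg, Esam, Ly6c1 and Sox17 were 0 CPM in every group, and those of Cdh5 and Tek at most 0.623 and 0.0718 CPM. In whole brain the 20 markers summed to 196 to 260 CPM in GF, against 218 to 257 CPM in SPF mice. Most of the cortex sum came from Eng, Slc2a1, Pecam1 and Kdr (GF medians 86.8, 54.3, 27.2 and 12.8 CPM). In wild-type hippocampus the sum was 142 to 197 CPM in GF, against 190 to 288 CPM in SPF mice, so the groups overlapped there and in whole brain and did not in cortex and 5xFAD hippocampus. For GF against SPF, 1 of 7 endothelial genes tested was called in cortex, lower, beside 1.71% of all genes. It was 0 of 7 in whole brain and 0 of 8 in each genotype of hippocampus, beside 1.99%, 0.727% (wild type) and 1.82% (5xFAD). For GFA against GF in cortex 1 of 7 was called, higher, beside 0.973%. The part of endothelial cells in the Notch4 result was not tested. In such bulk samples, fewer cells of a type and less RNA per cell cannot be told apart.

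Sums of other markers were read in the same way. The 10 mural markers summed to 6.77 to 15.1 CPM in 5xFAD GF hippocampus, against 0.347 to 6.99 CPM in 5xFAD SPF hippocampus, with Rgs5, Kcnj8 and Vtn at a median of 0 CPM in both. They summed to 0.654 to 21.8 CPM in GF cortex, against 1.36 to 4.49 CPM in SPF cortex, and to 3.65 to 5.79 CPM in wild-type GF hippocampus, against 0.982 to 5.17 CPM in wild-type SPF hippocampus. The groups overlapped in all of these, and 0 of the 3 mural genes tested in cortex and of the 5 tested in hippocampus were called in edgeR for GF against SPF. The 10 astrocyte markers summed to 359 to 470 CPM in GF cortex, against 304 to 393 CPM in SPF cortex, and to 473 to 479 CPM in 5xFAD GF hippocampus, against 241 to 307 CPM in 5xFAD SPF hippocampus. In wild-type hippocampus they summed to 318 to 439 CPM in GF, against 233 to 300 CPM in SPF mice. For GF against SPF, 1 of 6 astrocyte genes tested was called, higher, in 5xFAD hippocampus, 0 of 6 in wild-type hippocampus and 0 of 7 in cortex. Over all genes 1.82%, 0.727% and 1.71% were called in these comparisons. Nearly all of the astrocyte sum was the glutamate transporter Slc1a3 (medians 387 and 471 CPM in GF cortex and 5xFAD GF hippocampus), with a median of Gfap of 0 CPM in both. The 12 microglial markers summed to less, with 48200 to 55000 CPM in GF cortex, against 57300 to 70900 CPM in SPF cortex. In hippocampus they summed to 47200 to 48900 CPM in wild-type GF, against 59600 to 66000 CPM in wild-type SPF mice, and overlapped in 5xFAD. Border macrophage markers summed to 12.3 to 17 CPM in GF cortex, against 23.5 to 39.8 CPM in SPF cortex. In GF against SPF hippocampus they had 2.12 to 11.3 against 15.6 to 30.1 CPM in wild type. In 5xFAD they had 10.2 to 13.3 against 20.6 to 37.2 CPM. Both sums overlapped between GF and SPF mice in whole brain. The part of these cells in the Notch4 result was not tested.

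A list of 12 genes that glucocorticoids induce in many tissues, among them Fkbp5, Tsc22d3 and Zbtb16, was also read beside Notch4. Its median sum was higher in GF than in SPF mice of each tissue and genotype. It summed to 2090 to 3040 CPM in GF cortex, against 1060 to 1750 CPM in SPF cortex, and to 2870 to 3460 CPM in 5xFAD GF hippocampus, against 733 to 1140 CPM in 5xFAD SPF hippocampus. Wild-type hippocampus had 1950 to 3260 CPM in GF, against 1350 to 2130 CPM in SPF mice, and these groups overlapped. 5xFAD GFA hippocampus had 1040 to 1590 CPM, against 1310 to 2070 CPM in wild-type GFA hippocampus, where mean Notch4 was lower. GFA cortex had 1170 to 2040 CPM, and whole brain 1660 to 2130 CPM in GF, against 1120 to 1240 CPM in SPF mice. Of its 12 genes tested in cortex of GF against SPF mice, 3 rose and 1 fell, beside 1.71% of all genes called. The median log2 was 1.63 beside -0.00059 over all genes. The 1 that fell was Cdkn1a, which the Notch target list holds too. In 5xFAD GF against SPF hippocampus 8 rose and 1 fell, beside 1.82% of all genes called. The 16 immediate early genes, which rise during cell isolation, summed to 3430 to 4110 CPM in 5xFAD GF hippocampus, against 1780 to 2750 CPM in 5xFAD SPF hippocampus, and overlapped in cortex. The glucocorticoid list was drawn up with earlier results of these data known, so its rise in GF mice is a description and not an independent result. The part of either list in the Notch4 result was not tested.

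None of the listed genes next to Notch4 was called in whole brain or cortex of GF against SPF mice. Gpsm3, a G protein regulator which lies on the same strand, so that reads of the pair could not be separated by strand, had 38.9 to 47.3 CPM in GF cortex, against 41.3 to 48.2 CPM in SPF cortex (log2 -0.05, SE 0.123, adjusted p = 0.919). Pbx2, a homeodomain protein, had a log2 of -0.35 (SE 0.141, adjusted p = 0.253) there. Of the other listed genes near Notch4, Agpat1 had a log2 of -0.51, Ppt2 -0.18 and Rnf5 -0.02 there (adjusted p = 0.105, 0.677 and 0.969), and Ager, Egfl8, Btnl2 and H2-Ea averaged under 5 CPM. The pseudogene Gm20462, which overlaps Notch4 on the opposite strand, had at most 1.03 CPM in any library.

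Per kb of exon, Notch2 was the most abundant receptor by group mean in every group, and it did not pass in any housing comparison. It averaged 222 ± 30.9 CPM in GFA, 254 ± 33.2 CPM in GF and 262 ± 71.9 CPM in SPF cortex (SD, n = 4 each). In wild-type hippocampus the GF libraries had 304, 210 and 257 CPM, against 251, 181, 212 and 111 CPM in SPF libraries, where the shallow SPF4 was lowest. The log2 difference was 0.44 (SE 0.207, adjusted p = 0.385). Whole-brain Notch2 had a log2 of -0.28 (SE 0.151, adjusted p = 0.414), and over all 10 housing comparisons the log2 values ran from -0.45 to 0.44.

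Notch1, the receptor best known from development and T cells, did not pass in any of the 10 housing comparisons. It averaged 85.6 ± 12.7 CPM in GFA, 81.5 ± 11.4 CPM in GF and 83.7 ± 14.5 CPM in SPF cortex. In wild-type hippocampus it was low in GFA518 (35.5 CPM) and in SPF4 (37.4 CPM), while the remaining libraries had 57.3 to 114 CPM. In whole brain it had 23.9, 17.1, 23.2, 29.3 and 22.9 CPM in GF libraries, against 28.4, 28.5 and 29.2 CPM in SPF libraries, and 1 GF library reached the SPF values (log2 -0.30, SE 0.157, adjusted p = 0.388). On the opposite strand 0610009E02Rik and Gm13568 overlap its end, and no source used here states whether reads were counted by strand.

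Rbpj, the factor through which all 4 receptors act, stayed within 18.2 to 48.3 CPM in the second table. In GF cortex it had 31.2, 40.1, 30.6 and 35.8 CPM, against 28, 29.6, 30 and 28.2 CPM in SPF cortex. The groups did not overlap, as for 3.98% of genes, but the log2 difference of 0.25 (SE 0.138) did not pass (adjusted p = 0.478). GFA against GF gave log2 -0.31 in cortex, -0.49 in wild-type and -0.31 in 5xFAD hippocampus (adjusted p = 0.402, 0.326 and 0.833). The 3 comparisons share no libraries, but 4 GFA and 3 GF wild-type animals gave both cortex and hippocampus. Its processed pseudogenes Rbpj-ps1 and Rbpj-ps3 took at most 0.782 CPM, a small part of the Rbpj level.

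Hes1, a repressor that Notch signals induce, was highest in acetate-treated mice by group mean in cortex and in both genotypes of hippocampus, without passing in any comparison. In cortex it had 17.6, 21.7, 24.7 and 20 CPM in GFA libraries, 19, 15.4, 13.9 and 24.9 CPM in GF libraries and 13.9, 14.6, 12.9 and 13.8 CPM in SPF libraries. Every GFA library was above every SPF library, as for 2.47% of genes (log2 0.60, SE 0.184, adjusted p = 0.333). In hippocampus, GFA against SPF gave log2 0.54 (SE 0.317, adjusted p = 0.707) in wild type and 0.38 (SE 0.321, adjusted p = 0.964) in 5xFAD. The GFA and SPF animals of cortex and of wild-type hippocampus were the same. GFA against GF gave log2 0.19 for Hes1 in cortex, 0.12 in wild-type and 0.39 in 5xFAD hippocampus (adjusted p = 0.778, 0.939 and 0.94). In whole brain it averaged 17.1 ± 2.07 CPM in GF and 20.7 ± 5.66 CPM in SPF mice (n = 5 and 3, adjusted p = 0.524).

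**Figure D3:**
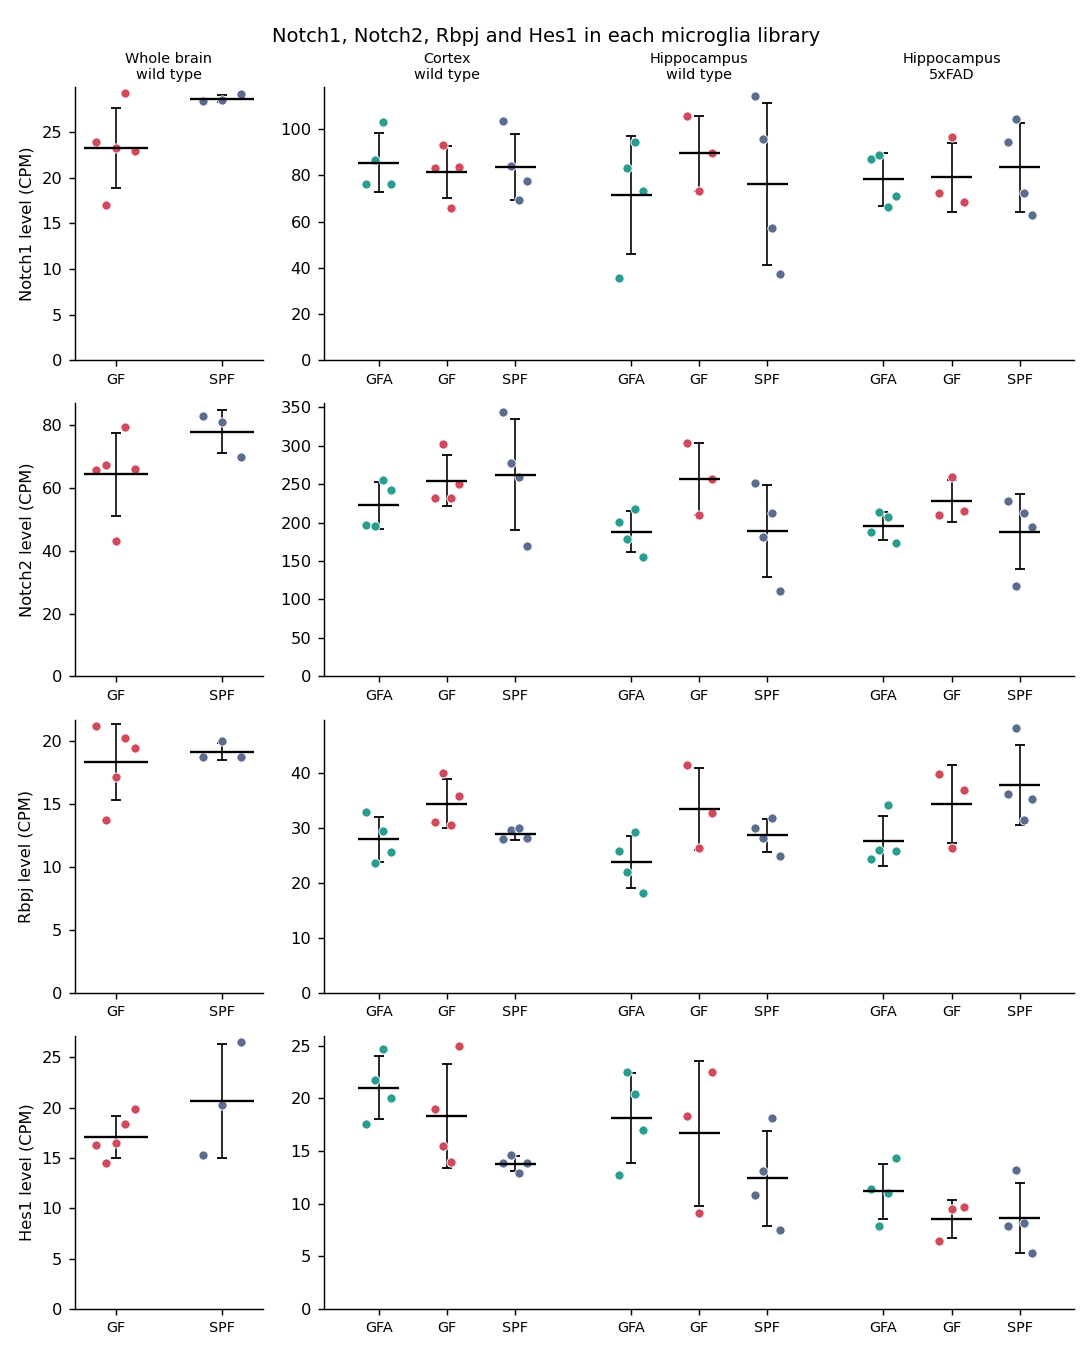
Levels in CPM of Notch1, Notch2, Rbpj and Hes1 in each library (points), with group mean (line) and SD (bar); whole brain has its own axes. The ranges of GFA, GF and SPF libraries overlap in each tissue and genotype, except Rbpj in GF against SPF cortex and Hes1 in GFA against SPF cortex.

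Between genotypes, Hes1 was lower in 5xFAD by group mean in all 3 housings, and none passed. It averaged 11.2 ± 2.63 CPM in 5xFAD GFA and 18.2 ± 4.28 CPM in wild-type GFA hippocampus (n = 4 each, log2 -0.70, SE 0.317, adjusted p = 0.304). In GF hippocampus it averaged 8.54 ± 1.82 CPM in 5xFAD and 16.7 ± 6.85 CPM in wild type (n = 3 each, log2 -0.97, SE 0.368, adjusted p = 0.309). In SPF hippocampus the values were 8.63 ± 3.30 CPM in 5xFAD and 12.4 ± 4.50 CPM in wild type (n = 4 each, log2 -0.55, SE 0.322, adjusted p = 0.634), with 0.756% of genes called in GF and 0.568% in SPF hippocampus. Rbpj had a log2 of 0.39 in SPF hippocampus (SE 0.187, adjusted p = 0.475). Notch1 and Notch2 ranged from log2 -0.18 to 0.13 between genotypes.

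Whether housing acted differently in the genotypes was tested in hippocampus as a contrast of contrasts, in edgeR. For Notch1, Notch2, Rbpj and Hes1 none passed. Of all 17063 genes 0 (0.0%) were called for GF against SPF, GFA against GF and GFA against SPF, where 942, 905 and 1124 genes had an unadjusted p under 0.05. Notch4 was not tested here. Its 5xFAD change exceeded the wild-type change by log2 0.87 (SE 0.553) for GF against SPF.

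**Figure D4:**
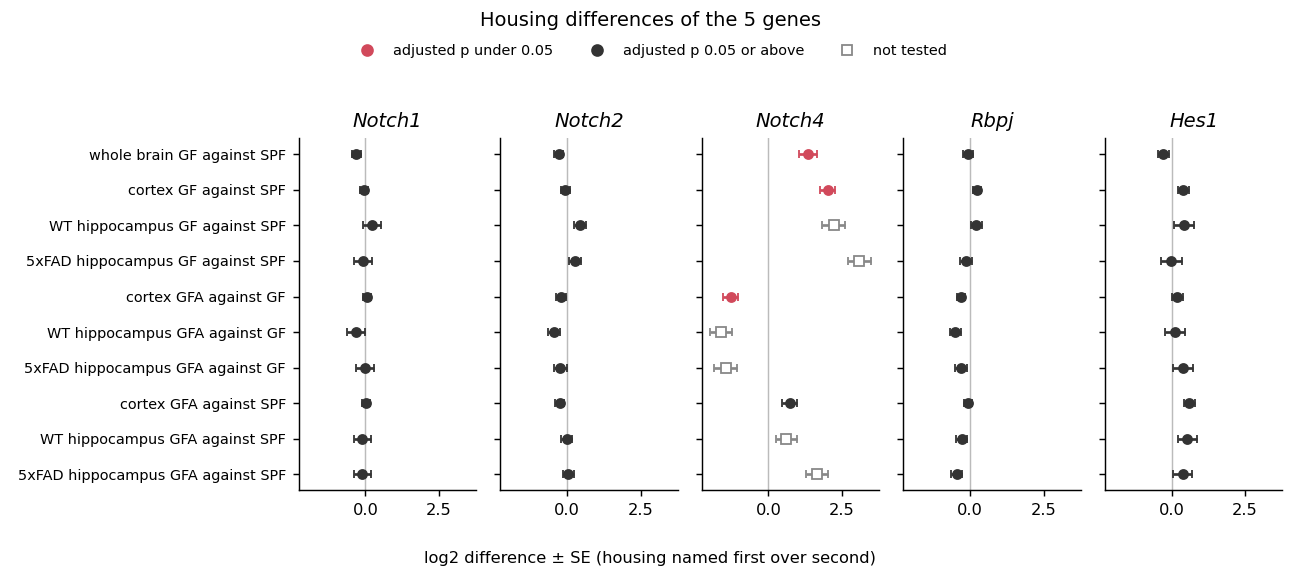
Log2 differences (points) with SE (bars) of the 5 genes in the 10 housing comparisons, the first-named housing over the second. Filled red points were called, filled dark points were not, and open squares (Notch4 in hippocampus) were not tested; called points occur for Notch4 in whole brain (1.35) and cortex (2.01 and -1.29).

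Hippocampus and cortex of the same wild-type animals were compared with the animal as a block. Notch2 was the 1 gene of the 4 tested that passed, and 12.5% of 16706 genes were called. It fell in hippocampus by a log2 of -0.25 (SE 0.0605, adjusted p = 0.0143) over all 11 animals and by -0.48 (SE 0.0998, adjusted p = 0.0429) in SPF mice, where 0.718% of genes were called. The 4 SPF animals had 251, 181, 212 and 111 CPM in hippocampus, against 343, 278, 259 and 169 CPM in cortex, so each was lower in hippocampus. In GF animals the log2 was -0.03 (SE 0.114, adjusted p = 0.952), with 0.0359% of genes called, and in GFA animals -0.24 (SE 0.0995, adjusted p = 0.226), with 2.38%. Whether the housings differ in this was not tested. Without the block neither call held (adjusted p = 0.217 and 0.356). The SPF call was lost without any of the 4 animals (0.0876 to 0.287), and the call over all animals without GF530 (0.0609); over the alternatives the adjusted p ran from 0.000442 to 0.356 in SPF and from 0.00185 to 0.217 over all.

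Notch1, Rbpj and Hes1 did not pass between regions, with log2 values of -0.13, -0.11 and -0.20 (adjusted p = 0.512, 0.438 and 0.39). Notch4 had a log2 of -0.11 over all animals, not tested, and of -0.13 in GFA animals (SE 0.234, adjusted p = 0.836). The animals kept their rank in part: GF529 had the most Notch4 and GF530 the least among the 3 GF animals in both regions, whereas GFA518 and GFA523 were high in cortex (51.2 and 45.1 CPM) and not in hippocampus (28.5 and 28.9 CPM).

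**Figure D5:**
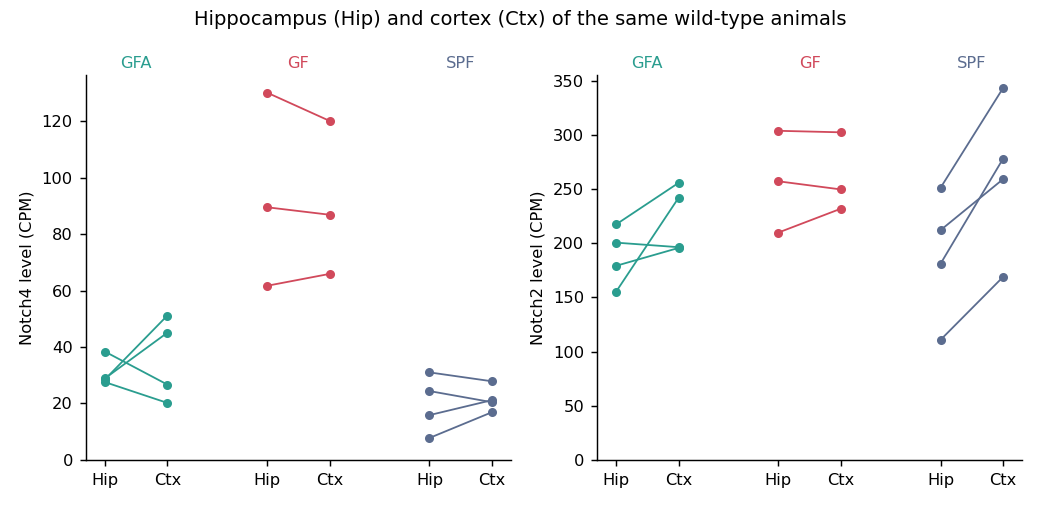
Notch4 and Notch2 levels in CPM in hippocampus (Hip) and cortex (Ctx) of the same wild-type animals, each line 1 animal. Notch2 is lower in hippocampus in all 4 SPF animals. Notch4 lies at 61.7 to 130 CPM in GF animals, both regions together, above the others. The hippocampal GF and SPF values are those on which Notch4 was chosen, and the same animals gave the cortex values.

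Of 80 other genes of the Notch pathway, listed by role with earlier results known, few were called with housing. In GF against SPF cortex and hippocampus they made up a larger share than over all genes. They are few, from a list chosen with results known. In whole brain 0 of 63 tested were called in edgeR, beside 1.99% of all genes. In cortex of GF against SPF mice 1 of 65 was higher and 2 were lower, beside 1.71% of all genes, and in GFA against GF 1 was higher and 0 lower, beside 0.973%. The medians of the 65 (log2 -0.05 and 0.06) were near those of all genes (-0.00059 and -0.01). In hippocampus of GF against SPF mice, 1 of 68 rose in wild type, and 1 rose and 3 fell in 5xFAD, beside 0.727% and 1.82% of all genes.

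Ligands other than Jag2 were scarce. Jag2 was the most abundant, averaging 23.4 CPM in GFA, 13.6 CPM in GF and 15.1 CPM in SPF cortex. Dll1 and Jag1 had group means under 6 CPM and Dll4 under 1 CPM, with single libraries up to 8.62 CPM for Dll1 and 2.18 CPM for Dll4. With housing, 0 of the 3 tested in whole brain, 3 in cortex and 4 in hippocampus were called, beside 0.0527% to 1.99% of all genes. In whole brain the median log2 of the 3 was 1.35 in GF against SPF, beside 0.00268 over all genes. Of the 15 genes that process the receptors, among them the proteases Adam10 and Adam17 and the gamma-secretase subunit Ncstn, 0 passed in edgeR in any housing comparison, where 0.0527% to 1.99% of all genes were called, so a count of 0 says nothing particular about them.

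Among regulators of receptor traffic, Dtx4, a Deltex ubiquitin ligase, was called in cortex. It averaged 380 CPM in GFA, 257 CPM in GF and 382 CPM in SPF cortex, fell in GF against SPF (log2 -0.57, SE 0.121, adjusted p = 0.0188) and rose in GFA against GF (log2 0.56, SE 0.120, adjusted p = 0.0325). Both comparisons share the 4 GF libraries. In 5xFAD GF against SPF hippocampus, Numb, an endocytic inhibitor of Notch, fell (log2 -0.46, SE 0.120, adjusted p = 0.0481), and Dtx3 rose (log2 0.48, SE 0.127, adjusted p = 0.0486).

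Of 16 listed target genes, Bcl2, which blocks apoptosis, rose in GF against SPF mice in cortex (log2 1.01, SE 0.231, adjusted p = 0.0303) and in wild-type hippocampus (log2 1.09, SE 0.218, adjusted p = 0.0224). Cdkn1a, the cell-cycle inhibitor p21, fell in GF against SPF mice in cortex (log2 -1.07, SE 0.235, adjusted p = 0.0232) and 5xFAD hippocampus (log2 -1.7, SE 0.431, adjusted p = 0.0418), and Ccnd1, a cyclin, fell in 5xFAD hippocampus (log2 -0.77, SE 0.165, adjusted p = 0.0134). These genes answer to many other signals too. Hey1, Hey2, Heyl and Hes5, the more selective targets, averaged under 1 CPM in every group.

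Between genotypes, of 68 pathway genes tested 1 was higher in 5xFAD in SPF hippocampus and 0 were called in GF hippocampus. In GFA hippocampus 2 were higher and 1 was lower. Over all genes 0.568%, 0.756% and 2.51% were called in SPF, GF and GFA hippocampus. Bcl2 was higher in 5xFAD in SPF (log2 1.01, adjusted p = 0.0208) and GFA hippocampus (log2 1.07, adjusted p = 0.00378). In GFA hippocampus Ncstn, a gamma-secretase subunit, was also higher (log2 0.41, adjusted p = 0.00686) and Numb lower (log2 -0.54, adjusted p = 0.00718). Between regions 4 of 69 rose and 14 fell in hippocampus over all wild-type animals, beside 4.43% and 8.06% of all genes, with a median log2 of -0.00156 beside -0.0401. The lower ones included Ncstn (log2 -0.39, adjusted p = 8.39e-05), Adam17 (-0.47, 0.000676), the convertase Furin (-0.40, 0.00104) and the glycosyltransferase Mfng (-0.40, 0.00207), which modifies receptors. Psenen, also among the genes that process the receptors, rose (0.25, 0.0347). Of traffic regulators Dtx3l (-0.48, 0.00268), the ubiquitin ligase Itch (-0.31, 0.00687), Dtx4 (-0.23, 0.00861) and Mib2 (-0.32, 0.0228) fell. Of nuclear cofactors the corepressor Ctbp1 (-0.40, 0.00152) and the acetyltransferase Kat2a (-0.53, 0.00191) fell and the coactivator Crebbp rose (0.30, 0.0037), and of targets Ccnd1 (0.49, 0.0011) and Cdkn1a (0.88, 0.00152) rose. In SPF animals alone Adam17 and Ncstn fell (log2 -0.59 and -0.38), beside 0.718% of all genes called. In GFA animals Furin, Ncstn, Kat2a and Ctbp1 fell (log2 -0.48, -0.45, -0.74 and -0.61) and Cdkn1a rose (1.17), beside 2.38%. None of the 69 was called in GF animals, beside 0.0359% of all genes.

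Genes whose levels followed each of the 5 most closely were ranked by Pearson's r of log2(CPM + 1) over the 22 hippocampus libraries, among 10348 genes, as a description; these libraries share groups and depth, and r is also given for deviations from the group means. Nearest to Notch4 were Slc43a2, an amino acid transporter (r = 0.895, and 0.730 over the 12 cortex libraries), Cpeb2, a regulator of mRNA translation (0.891 and 0.827), and Sh3bp5 (0.886 and 0.825). Without the 2 libraries farthest from the Notch4 median their r was 0.834 to 0.850, and within groups it was 0.715 for Slc43a2, 0.636 for Cpeb2 and 0.834 for Sh3bp5. Cpeb2 averaged 145 CPM in 5xFAD GF, against 57.7 CPM in 5xFAD SPF hippocampus, and Slc43a2 199 CPM, against 97.4 CPM. Both were picked by their likeness to Notch4 over these same libraries, so these differences follow from the ranking and are no separate result.

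Nearest to Notch2 were Mertk, a receptor for engulfing dead cells (0.847 and 0.665 in cortex), Extl3 (0.839 and 0.857) and Nfatc1 (0.833 and 0.715), with 0.821, 0.883 and 0.801 within groups. Nearest to Notch1 were Idnk (0.802), Slc39a1 (0.760) and Zfp652os (0.742), which dropped to 0.489, 0.404 and 0.259 without 2 libraries and had -0.111, 0.553 and 0.523 in cortex and 0.799, 0.784 and 0.788 within groups. Nearest to Rbpj were Supt6 (0.799), Rab27a (0.754) and Rbm47 (0.728), with 0.0338, 0.664 and 0.485 in cortex and 0.697, 0.63 and 0.638 within groups. Nearest to Hes1 were Msl1 (0.712), Camk2n1 (0.689) and Pdp1 (0.669), with 0.19, 0.568 and 0.053 in cortex and 0.403, 0.336 and 0.586 within groups. Among the 5 genes themselves Notch4 and Notch2 had r = 0.606 in hippocampus and 0.0608 in cortex, Notch4 and Rbpj 0.182 and 0.696, and Notch4 and Hes1 0.101 and 0.256.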

How the data were processed

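Per the labels, sequencing ran on a HiSeq 1000. The authors deposited raw read counts per gene, in 8 whole-brain files and 1 table of 34 cortex and hippocampus columns, all matched to samples. Per the submitters' processing notes reads went through STAR 2.5.2b and featureCounts 1.5.1 on GRCh38, a human build, while the symbols are mouse; 95.7% and 93.5% matched GENCODE M21 (GRCm38), which served for lengths, neighbours and positions only.

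Counts were fitted in R 4.3.3 with edgeR 4.0.16 (filterByExpr minimum count 10, TMM, robust quasi-likelihood, two-sided tests, Benjamini-Hochberg over all genes of a fit), separately for whole brain, cortex, hippocampus and, with the animal as block, the regions. The SE is the log2 difference over the square root of F. Levels are TMM CPM, per kb of exon union where stated. DESeq2 1.42.0 and the other settings are given with the closing limits. The fits were tested on simulated data. Depth limits precision most in the shallow hippocampus libraries.

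Members and gene lists were chosen with earlier results of these data known. Named were the 5 members, up to 4 called genes of each pathway list by smallest p, Psenen, Notch3 and the 3 likest genes. Neighbours and markers were read beside them. Replicates are samples labelled apart, so p-values reflect the variation among these samples alone; counts of replicate pairs differed by chi-square per degree of freedom of 9.71 to 56.1 (61 pairs). The regions are paired because the labels give the same animal numbers; residuals of an animal's regions correlated across genes at r of 0.0273 to 0.116. Whole-brain numbers name different mice and pair nothing. Proteins were not used here.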

Additional observations from a re-analysis of the deposited data

Results flagged for a closer look

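Among 40 groups of 4 or 5 libraries checked for a member's highest or lowest value standing far from the others, 2 stood out; chance flags about 1 in 20 groups. Notch4 in wild-type GFA hippocampus was 38.4 CPM in GFA524, where the others had 27.6 to 28.9 CPM. Rbpj in 5xFAD GFA hippocampus was 34.3 CPM in GFA521, where the others had 24.4 to 26 CPM.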

How the results depend on the processing

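Each comparison was refitted with DESeq2, with RLE scaling, unfiltered, with genes of at least 5 CPM on average, with its own groups alone, and with each replicate left out. Hippocampus was also fitted without the shallow libraries, without GF530 and GFA518 (fewer genes detected), and without SPF2153 and SPF3 (neutrophil or erythroid genes). The wild-type GF library with 226 CPM of neutrophil genes was kept in that last fit. Regions were also fitted with no replicate block. The number of the 5 genes tested and called changed as follows. In whole brain it was 1, and 0 with a replicate block by number (Notch4 log2 1.19, adjusted p = 0.171) or over the same 6 libraries without it, a setting chosen after seeing the data (0.177), and 0 to 1 with each replicate left out. The numbers pair nothing there (r of -0.0365 to -0.00293). In cortex GFA against GF it was 0 without a filter and 0 to 1 with each replicate left out. Between regions, leaving out the shallow libraries meant leaving out SPF4, and leaving out those with neutrophil or erythroid genes meant leaving out SPF3. The number called there was 0 with no replicate block in SPF and over all mice. With each animal left out it was 0 in SPF and 0 to 1 over all. The cause was not tested.

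Log2 values of genes that were not called changed sign. With each replicate left out in turn, Notch1 ran in cortex from -0.037 to 0.139 (GFA against GF), -0.122 to 0.0812 (GF against SPF) and -0.0713 to 0.144 (GFA against SPF). It ran in wild-type hippocampus from -0.313 to 0.159 (GFA against SPF) and in 5xFAD from -0.248 to 0.0429 (GF against SPF), -0.116 to 0.147 (GFA against GF) and -0.217 to 0.0293 (GFA against SPF). Between genotypes it ran from -0.085 to 0.387 (SPF) and -0.0994 to 0.285 (GFA). Notch2 ran from -0.208 to 0.111 (cortex GF against SPF), -0.189 to 0.154 and -0.117 to 0.148 (GFA against SPF, wild type and 5xFAD), -0.179 to 0.164 and -0.0228 to 0.128 (genotypes, SPF and GFA) and -0.0838 to 0.0401 (regions, GF). Rbpj ran from -0.122 to 0.0216 (whole brain), -0.143 to 0.0165 (cortex GFA against SPF), -0.266 to 0.0213 (5xFAD GF against SPF) and -0.105 to 0.217 (genotypes, GF). Hes1 ran from -0.174 to 0.403 (wild-type GFA against GF) and -0.185 to 0.261 (5xFAD GF against SPF).

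Under the other settings, Rbpj in whole brain had 0.0165 with the block and 0.0216 over the same libraries. Without GF530 and GFA518, Hes1 had -0.0335 (wild-type GFA against GF) and 0.012 (5xFAD GF against SPF), Notch1 0.121 (wild-type GFA against SPF) and -0.099 (GFA genotypes), Rbpj -0.105 (GF genotypes) and Notch2 0.024 (GF regions). Without shallow libraries Notch1 had 0.0429 and 0.0291 (5xFAD GF and GFA against SPF) and -0.213 (SPF genotypes), Hes1 0.261 (5xFAD GF against SPF) and Notch2 -0.117 (5xFAD GFA against SPF). Without SPF2153 and SPF3, Notch2 had 0.0363 (wild-type GFA against SPF) and 0.0431 (SPF genotypes). Hes1 in 5xFAD GF against SPF had 0.000233 (DESeq2), 0.00422 (unfiltered) and 0.00293 (own groups alone). Notch2 had 0.00798 (DESeq2), 0.00794 (RLE) and 0.0112 (5 CPM) in SPF genotypes and 0.00907 (5 CPM) in GF regions.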
